A study of Homo sapiens with 6 samples.

Results

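Integrins are paired receptors, built of an alpha and a beta chain, through which cells hold on to the extracellular matrix. Laminins, trimers of an alpha, a beta and a gamma chain, form the sheet of the basement membrane under epithelium; nidogens link that sheet to collagen IV, and fibronectin is a matrix glycoprotein that integrins bind through its RGD motif. A set of 37 genes for these proteins was listed by name, and 35 of them matched a row among the 21676 gene symbols of the count table; expression of ITGA8 and ITGA9 was not analysed here. Of the 35 genes, 28 passed the filter on low counts and were tested. The libraries came from the 83 cell line, a line described as SACC, an abbreviation usually read as salivary adenoid cystic carcinoma. Control cells (3 libraries) were compared with cells under overexpression of ApoD (3 libraries). Both groups are the same line; how ApoD was introduced, what the control cells carried and whether the libraries of a group came from separate cultures are not stated, so a p-value here reflects variation among libraries that could be purely technical.

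The laminin-binding integrins pair ITGA3 or ITGA6 with ITGB1, and ITGA6 with ITGB4; the last of these pairs anchors hemidesmosomes, the rivets that tie epithelial cells to the basement membrane. ITGA5 with ITGB1 is the classical fibronectin receptor, and ITGAV pairs with ITGB1, ITGB3, ITGB5, ITGB6 or ITGB8 to bind RGD ligands such as vitronectin, fibronectin and the latent form of TGF-beta. Chains such as ITGAL, ITGAM, ITGAX, ITGB2 and ITGB7 are known from leukocytes.

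With ApoD overexpression FN1 rose 2.06-fold and ITGB5 rose 1.74-fold, while ITGB6 fell to 31.3% of its control level, LAMA5 to 70.5% and LAMB2 to 66.0%. Of the 28 tested genes 4 rose and 8 fell, by the quasi-likelihood test of edgeR with an adjusted p under 0.05. That is 42.9% of them, against 48.8% of all 14629 tested genes (24.2% higher, 24.6% lower), so the share of changed genes was not above the background. For 14 of the 28 (5 higher, 9 lower) every library of 1 group lay above every library of the other, against 58.7% of all tested genes (29.0% higher, 29.7% lower). By class, 1 of 9 tested integrin alpha chains rose and 1 fell, 1 of 7 beta chains rose and 4 fell, and of 9 laminin chains 1 rose and 2 fell. Their median log2 fold change was -0.01, and that of all tested genes -0.02. With scaling by library totals these medians were -0.12 and -0.13, and 3 of the genes rose and 10 fell (23.1% of calls higher against 33.3%); over all genes 36.8% of calls were then higher against 49.6%.

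The sequences before the gene starts are shown for 4 genes past the threshold, with FN1 as the largest rise, ITGB6 and LAMA5 as falls, and LAMB3 as a chain that rose less. They are RefSeq promoters of GRCh38.p14 on the minus strand, read 5′ to 3′, and end before the first annotated UTR base of the gene. Capitals mark matches, on either strand, to TGACGTCA (cAMP response element), TGANTCA (AP-1), GGAATG (TEAD), CACCTG (an E-box bound by SNAI and ZEB factors), GGGCGG (GC box), CCAAT or TATAAA.
FN1, chr2:215436173-215436318: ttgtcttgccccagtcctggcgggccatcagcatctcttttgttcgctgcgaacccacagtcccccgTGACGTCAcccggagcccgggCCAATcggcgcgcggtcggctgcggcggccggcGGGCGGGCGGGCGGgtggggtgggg
ITGB6, chr2:160200314-160200522: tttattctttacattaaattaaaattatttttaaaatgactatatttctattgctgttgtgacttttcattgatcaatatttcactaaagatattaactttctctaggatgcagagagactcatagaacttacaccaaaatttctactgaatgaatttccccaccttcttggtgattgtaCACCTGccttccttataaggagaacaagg
LAMA5, chr20:62367313-62367562: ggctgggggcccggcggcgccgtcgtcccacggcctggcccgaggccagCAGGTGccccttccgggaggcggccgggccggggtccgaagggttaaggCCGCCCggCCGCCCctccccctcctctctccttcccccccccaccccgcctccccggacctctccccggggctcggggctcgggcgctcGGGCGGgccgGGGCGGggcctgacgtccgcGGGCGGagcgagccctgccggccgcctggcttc
LAMB3, chr1:209651395-209651624: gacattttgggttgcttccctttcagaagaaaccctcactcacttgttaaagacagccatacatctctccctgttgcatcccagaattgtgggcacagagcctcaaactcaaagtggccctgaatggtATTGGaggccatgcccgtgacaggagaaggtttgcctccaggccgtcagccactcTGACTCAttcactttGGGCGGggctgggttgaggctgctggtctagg

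Matches were counted in the 250 bases before each start, in 34 windows of 27 of the listed genes and in 35116 windows of all genes. The FN1 window held a cAMP response element 183 to 176 bases before the start and a CCAAT box 162 to 158 bases before it. It also held 6 GC boxes, some sharing letters and some lying past the end of the printed sequence. Among all windows 1.65% held a cAMP response element and 32.0% a CCAAT box. The LAMA5 window held 5 GC boxes and an E-box, and 42.6% of all windows held a GC box and 17.5% an E-box. The ITGB6 window held an E-box and none of the other letters searched. AP-1 letters occurred in 6.57% of all windows, and among the listed genes in those of LAMA3 and LAMB3, 2 of 34. The LAMB3 match lay 67 to 61 bases before the start, in 1 of 3 windows of that gene. Only that LAMB3 window was printed, and it was chosen because it held the match. LAMA3 had matches 125 to 119 and 69 to 63 bases before its start, the second sharing letters with an E-box. TEAD letters, in 11.9% of all windows, occurred in 4 of the 34, and TATAAA, in 10.7%, in 2 of the 34. A match describes letters only.

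The libraries held 37542568 to 40416964 counts. Levels are given as CPM, counts per 1000000 of the TMM-scaled library. Levels of different genes are compared only as FPKM, which divides by gene length and by the library total without TMM scaling. APOD had 9, 8 and 2 counts in controls and 628, 528 and 625 with ApoD overexpression, in accord with the labels. The log2 change of APOD was 6.63, and 3.97 with log2(FPKM + 1). APOD passed the filter only through the ApoD overexpression libraries, so a difference was built into its being tested. Of the 8 epithelial markers fixed for the check all were above 1 CPM, with a summed level of 3150 to 4174 CPM in controls and 3617 to 4109 CPM with ApoD overexpression. KRT8 was the largest part of that sum, with means of 1255 and 1621 CPM. Of the markers 1 rose and 4 fell (62.5% called, against 48.8% of all tested genes). KRT7 rose to 140% of its control level, and EPCAM fell to 81.2%, TP63 to 48.4%, CDH1 to 41.0% and KRT14 to 29.8%. The groups overlapped for KRT7 (381, 268 and 266 CPM in controls, 364, 477 and 438 CPM with ApoD overexpression). For the 4 markers that fell they did not. On the first principal component control replicate 1 was the control closest to ApoD overexpression (-36.9, against -61.0 and -59.7 for the other controls and 42.8 to 60.2 for ApoD overexpression). Among the 28 tested genes it was the lowest control for 16, and ApoD overexpression replicate 2 was the lowest of its group for 19.

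FN1, the fibronectin gene, had the largest rise of the 4 listed genes that rose. It stood at 292, 320 and 274 CPM in the 3 controls and at 606, 569 and 653 CPM with ApoD overexpression. The lowest ApoD overexpression library lay far above the highest control, and the groups did not overlap. The mean rose from 295 ± 23.3 to 609 ± 42.4 CPM (SD, n = 3), a log2 fold change of 1.05 ± 0.10 (SE; edgeR adjusted p = 7.58e-06). Per length, FN1 went from 35.8 ± 2.46 to 68.2 ± 5.20 FPKM (SD, n = 3). A count per gene does not separate the splice forms of fibronectin.

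**Figure D1:**
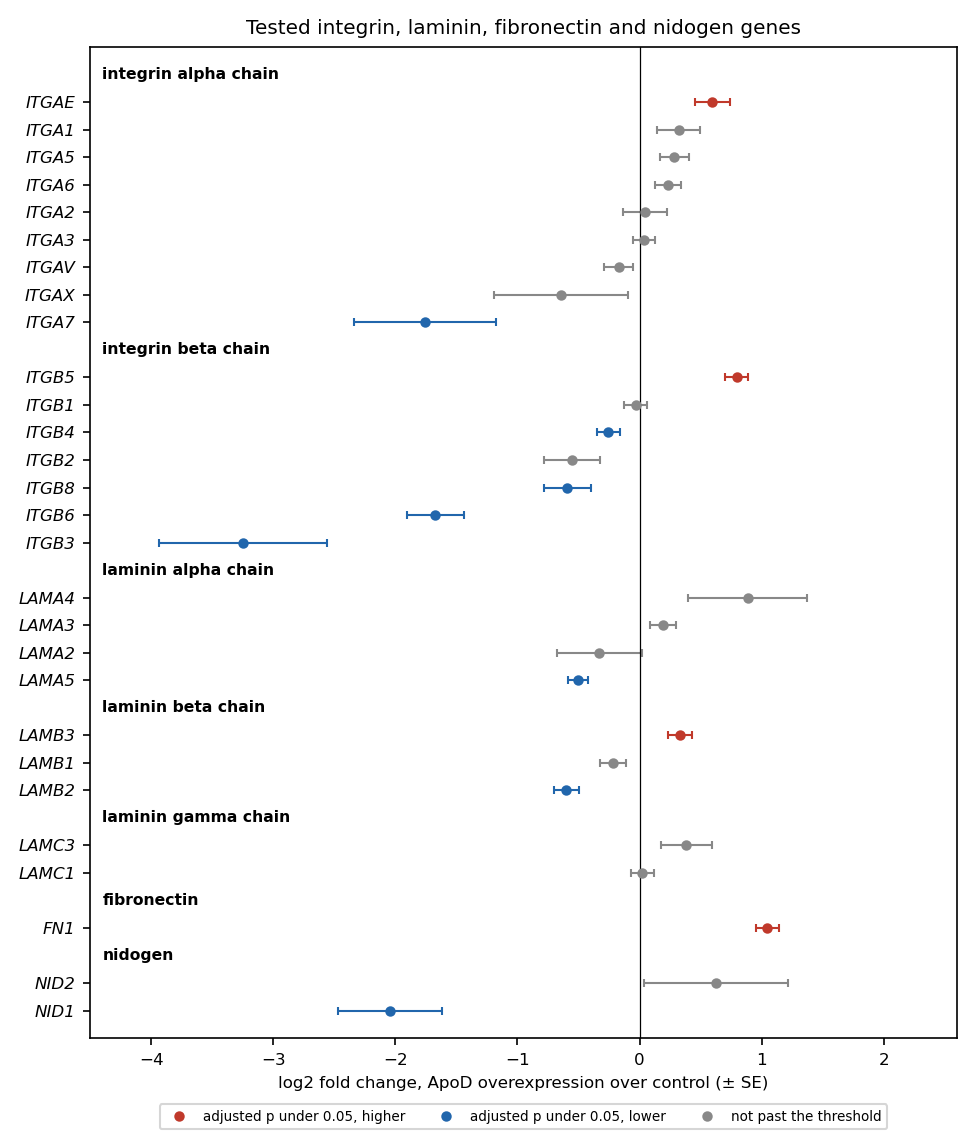
Log2 fold change (x axis, ApoD overexpression over control, ± SE) of the 28 tested genes by chain class, in red where higher and blue where lower at an edgeR adjusted p under 0.05. FN1 and ITGB5 are the 2 highest of the red points, and ITGB3, NID1, ITGA7 and ITGB6 lie farthest to the left.

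ITGA5 and ITGB1, the chains of the classical fibronectin receptor, did not pass the test. ITGA5 stood at 233, 321 and 315 CPM in controls and at 371, 340 and 348 CPM with ApoD overexpression. The groups did not overlap, but control replicate 1 was well below the other controls, and the difference of 0.28 ± 0.12 on the log2 scale (SE) did not pass (edgeR adjusted p = 0.0645). It passed with the DESeq2 Wald test, without the low-count filter and without control replicate 3. ITGB1, the partner of most alpha chains here, stood at 356, 385 and 374 CPM in controls and 388, 320 and 382 CPM with ApoD overexpression. Those ranges overlapped, with a log2 difference of -0.03 ± 0.10 (SE; edgeR adjusted p = 0.799).

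Of the beta chains that pair with ITGAV, ITGB5 rose, ITGB3, ITGB6 and ITGB8 fell, and ITGB1 did not pass. ITGB5, which with ITGAV binds vitronectin, stood at 68.1, 60.6 and 72 CPM in controls and at 112, 120 and 116 CPM with ApoD overexpression. Within each group these values were close, and no control came near the other group. ITGB5 rose by 0.80 ± 0.09 on the log2 scale (SE, n = 3; edgeR adjusted p = 4.12e-05).

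ITGB6, an epithelial chain that with ITGAV binds and activates latent TGF-beta, stood at 15.4, 25.3 and 29.5 CPM in controls and at 8.48, 5.32 and 8.22 CPM with ApoD overexpression. Control replicate 1 was the lowest control, yet it was still above each ApoD overexpression library. ITGB6 fell by 1.67 ± 0.23 on the log2 scale (SE, n = 3; edgeR adjusted p = 0.000131), and leaving out any 1 library gave changes of -1.90 to -1.46. ITGB8, the other TGF-beta-activating partner, stood at 30.6, 28.3 and 31.9 CPM in controls and at 24.1, 12.8 and 23.3 CPM with ApoD overexpression. The groups did not overlap, and ApoD overexpression replicate 2 was the lowest by a wide margin. ITGB8 fell by 0.59 ± 0.19 (SE; edgeR adjusted p = 0.0228), and without that library by 0.36 (adjusted p = 0.0206). An antisense gene, ITGB8-AS1, had 1.19 to 2.78 CPM in controls and 0.71 to 1.2 CPM with ApoD overexpression. It fell by 1.11 ± 0.38 (SE, edgeR adjusted p = 0.0302), though the groups overlapped. The strand setting is not given, so reads of the pair may be mixed.

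ITGB3 was scarce. It had 18, 47 and 105 counts in controls and 4, 8 and 4 counts with ApoD overexpression. The controls differed several-fold among themselves, and all of them lay above the other group. ITGB3 fell by 3.25 ± 0.69 on the log2 scale (SE, n = 3; edgeR adjusted p = 0.00218), but it passed the filter only through the controls, so a difference was built into its being tested.

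The shared partner ITGAV itself stood at 119, 121 and 126 CPM in controls and at 122, 88.3 and 114 CPM with ApoD overexpression. Replicates 2 and 3 of the second group lay below the controls and replicate 1 among them, and the log2 difference of -0.17 ± 0.12 (SE) did not pass (edgeR adjusted p = 0.237); with the abundance trend removed it was -0.35 and passed (adjusted p = 0.0275). Among ITGB3, ITGB5, ITGB6 and ITGB8, a group formed after their values were seen, ITGB5 took 63.1% ± 5.11 of the summed FPKM in control libraries, against 87.2% ± 3.45 under ApoD overexpression (SD, n = 3). ITGB6 took 22.5% ± 5.54 and 5.68% ± 1.32, and ITGB8 13.4% ± 1.02 and 7.01% ± 2.17. In each library ITGB5 was the most abundant of the 4 per length. ITGB1, which also pairs with ITGAV, was not in this group. Its mean was 96.3 FPKM in controls and 86.8 FPKM with ApoD overexpression, against 14.5 and 23.3 FPKM for ITGB5.

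**Figure D2:**
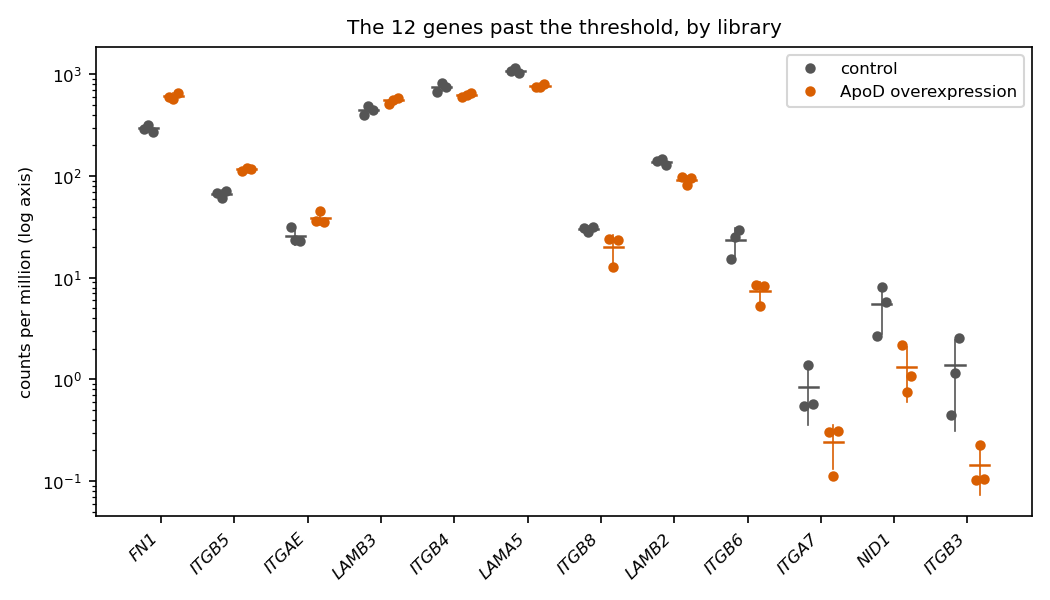
Level in CPM (log axis) of the 12 genes past the threshold, ordered by fold change, with 1 point per library, a line at the mean and a bar of 1 SD, for control (grey) and ApoD overexpression (orange). No gene shown has overlapping groups, and the controls of ITGB3, NID1 and ITGA7 are spread most widely.

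ITGA3, a laminin-binding chain, was the most abundant alpha chain per length in each group. It had a mean of 210.0 ± 20.5 FPKM in controls, against 198 ± 4.65 FPKM in the other group (SD, n = 3), which was 50.5% ± 1.24 and 47.6% ± 2.36 of the summed alpha chains. By FPKM in controls ITGA6 (76.9 ± 7.92), ITGA5 (69.9 ± 12.8), ITGA2 (35.8 ± 8.43) and ITGAV (17.6 ± 0.893) came next. The control ranges of ITGA6 (68.8, 77.2 and 84.7 FPKM) and ITGA5 (55.1, 77.0 and 77.7 FPKM) overlapped. Within each control library ITGA6 was the higher, though nearly equal in replicate 2. ITGA3 had a log2 difference of 0.03 ± 0.09 (SE; edgeR adjusted p = 0.777), and its sign flipped under scaling by library totals and after removal of the abundance trend. ITGA2, the collagen-binding chain of epithelium, had 0.05 ± 0.18 (adjusted p = 0.855), with the same flips. The lowest library of each group, control replicate 1 and ApoD overexpression replicate 2, stood at 200 and 202 CPM for ITGA2, and the other 4 at 299 to 325 CPM.

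ITGA6, the partner of ITGB4, stood at 408, 453 and 482 CPM in controls and at 560, 461 and 556 CPM with ApoD overexpression. The groups overlapped through replicate 2 of the second group, and the difference of 0.23 ± 0.10 did not pass (SE; edgeR adjusted p = 0.0813). ITGA1, also a collagen-binding chain, differed by 0.32 ± 0.17 (adjusted p = 0.146). Without ApoD overexpression replicate 2, ITGA6, ITGA1 and LAMA3 passed as well (adjusted p = 0.0202, 0.0357 and 0.0163), so that 7 of the genes rose and 6 fell; ITGB4 and ITGA7 were then not past the threshold.

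ITGB4, the hemidesmosome chain, stood at 678, 816 and 753 CPM in controls and at 595, 626 and 660 CPM with ApoD overexpression. All ApoD overexpression libraries lay below the lowest control, by a small step. ITGB4 fell by 0.26 ± 0.09 on the log2 scale (SE, n = 3; edgeR adjusted p = 0.0402). The call was lost in 9 of 16 alternatives, among them DESeq2 size factors in edgeR (adjusted p = 0.0564) and each omission of a library other than control replicate 1 (up to 0.201). With the abundance trend removed the fall was 0.47. ITGB1 and ITGB4 together held most of the beta chain FPKM in each library, ITGB1 at 41.1% ± 1.03 and 42.9% ± 2.83 and ITGB4 at 48.4% ± 1.5 and 43.5% ± 2.44 (SD, n = 3).

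Among the alpha chains 2 of 9 tested passed. ITGAE, known as the chain of the lymphocyte receptor for E-cadherin, stood at 31.2, 23.3 and 22.8 CPM in controls and at 36.0, 45.6 and 35.3 CPM with ApoD overexpression. The highest control was near the lowest of the other group without reaching it. ITGAE rose by 0.60 ± 0.14 (SE, n = 3; edgeR adjusted p = 0.0049). ITGA7, a laminin-binding chain known from muscle, had 22, 57 and 24 counts in controls and 12, 4 and 12 with ApoD overexpression. It fell by 1.76 ± 0.58 (adjusted p = 0.0248), but it missed the threshold when control replicate 2 was left out (-1.19, adjusted p = 0.177), without ApoD overexpression replicate 2 (-1.44, adjusted p = 0.0906), with the replicate block (-1.66, adjusted p = 0.0608) and with the abundance trend removed (-1.03, adjusted p = 0.156).

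ITGB2 and ITGAX, also known from leukocytes, did not pass. ITGB2 stood at 4.19, 4.88 and 3.65 CPM in controls and at 3.30, 3.01 and 2.35 CPM with ApoD overexpression, without overlap and short of the threshold (edgeR adjusted p = 0.06). It passed as lower under scaling by library totals and in the 3 fits on FPKM, with adjusted p down to 0.0224. The antisense gene ITGB2-AS1 had 47, 91 and 60 counts in controls and 18, 26 and 11 with ApoD overexpression. ITGB2-AS1 fell by 1.71 ± 0.45 (SE, edgeR adjusted p = 0.00731), and reads of this pair may be mixed too. ITGAX had a log2 difference of -0.65 ± 0.55 (adjusted p = 0.355). The 7 genes not tested were ITGA4, ITGA10, ITGA11, ITGAL, ITGAM, ITGB7 and LAMA1, none with more than 17 counts in a library. Of 8 leukocyte markers 6 matched a row, and 1 of them, CSF1R, was above 1 CPM. Their sum was 4.37 to 7.08 CPM in controls and 3.91 to 4.44 CPM with ApoD overexpression, with PTPRC at 1, 12 and 0 counts in controls and 0 in the other group. The part of other cells in ITGAE or ITGB2 was not tested.

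**Figure D3:**
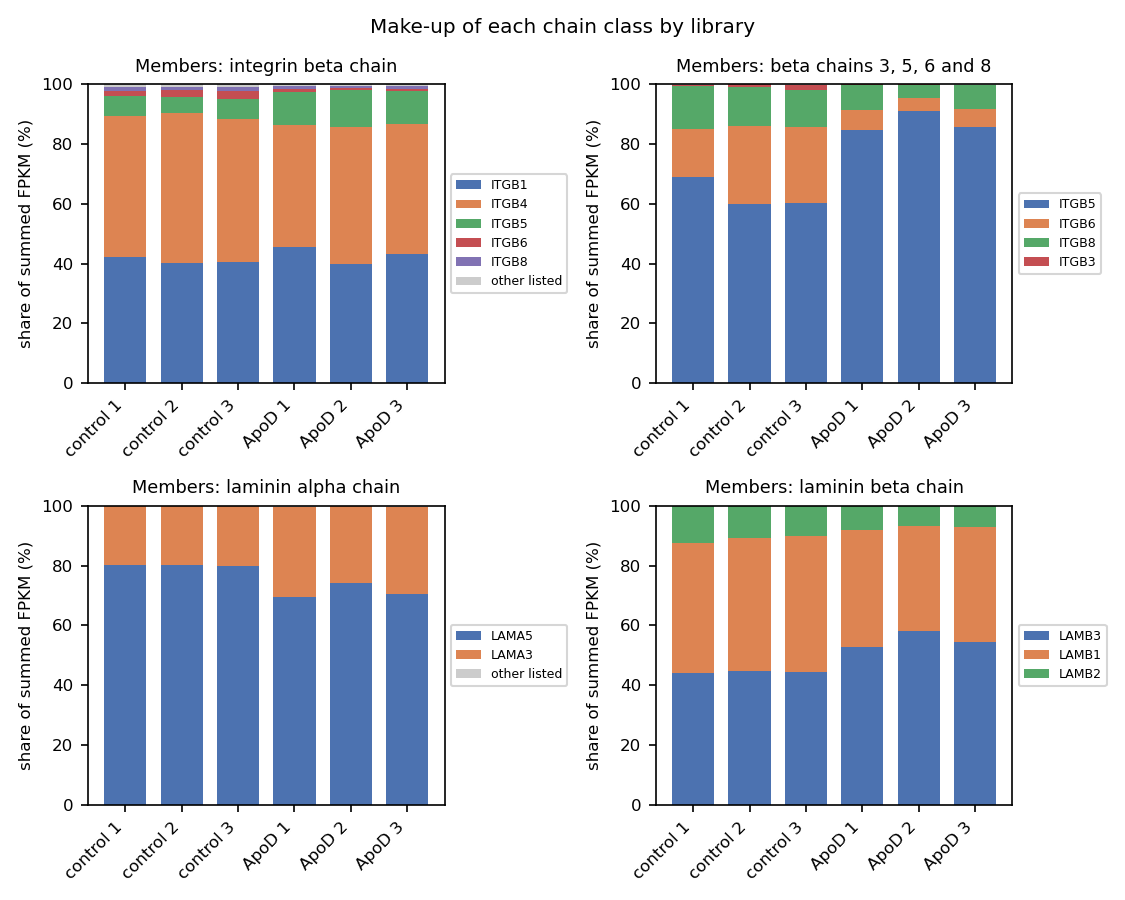
Share of each chain (y axis, % of the summed FPKM of the listed chains of its class) in each of the 6 libraries (x axis), for all beta chains, the beta chains 3, 5, 6 and 8, the laminin alpha chains and the laminin beta chains. LAMA3, LAMB3 and ITGB5 take a larger part of their bar in all 3 ApoD overexpression libraries than in any control.

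Among the laminin chains LAMA5 and LAMB2 fell and LAMB3 rose. LAMA5, the alpha chain of laminin-511 and laminin-521, stood at 1086, 1147 and 1036 CPM in controls and at 752, 753 and 799 CPM with ApoD overexpression. Within each group the libraries were close, and a wide gap separated them. LAMA5 fell by 0.50 ± 0.09 on the log2 scale (SE, n = 3; edgeR adjusted p = 0.000483). LAMB2, the beta chain of laminin-521, stood at 141, 147 and 129 CPM in controls and at 97.6, 81.1 and 96.0 CPM with ApoD overexpression. It too showed no overlap, and it fell by 0.60 ± 0.10 (adjusted p = 0.000436). LAMB1, the beta chain of laminin-511, stood at 561, 696 and 652 CPM in controls and at 551, 493 and 597 CPM with ApoD overexpression. The groups overlapped, and its difference of -0.22 ± 0.11 did not pass (adjusted p = 0.108), although it passed without control replicate 1 (-0.29, adjusted p = 0.026), under scaling by library totals (-0.34, adjusted p = 0.0247) and after removal of the abundance trend (-0.43, adjusted p = 0.0074).

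LAMA3 and LAMB3 belong to laminin-332, the laminin of hemidesmosomes. LAMB3 stood at 396, 488 and 445 CPM in controls and at 517, 565 and 586 CPM with ApoD overexpression. The lowest ApoD overexpression library was just above the highest control. LAMB3 rose by 0.33 ± 0.10 (SE, n = 3; edgeR adjusted p = 0.016), but it missed the threshold when ApoD overexpression replicate 3 was left out (0.31, adjusted p = 0.0737), under scaling by library totals (0.21, adjusted p = 0.091), after removal of the abundance trend (0.12, adjusted p = 0.333) and on FPKM (0.21, adjusted p = 0.0824). LAMA3 stood at 257, 275 and 252 CPM in controls and at 318, 253 and 326 CPM with ApoD overexpression. Replicate 2 of the second group lay among the controls, and the difference of 0.19 ± 0.11 did not pass (adjusted p = 0.15).

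Shares within a library do not depend on how libraries are scaled. LAMA3 took 19.4%, 19.7% and 19.9% of the summed laminin alpha chain FPKM in controls and 30.1%, 25.5% and 29.3% with ApoD overexpression, and LAMA5 took 80.2% ± 0.185 and 71.5% ± 2.51 (SD, n = 3). Among the beta chains LAMB3 took 44.1%, 44.8% and 44.4% in controls and 52.8%, 58.1% and 54.3% with ApoD overexpression. LAMB1 took 44.5% ± 0.936 and 37.7% ± 2.11, and LAMB2 11.1% ± 1.17 and 7.20% ± 0.665. The controls agreed closely, and each of these 5 shares separated the groups. The exact permutation test, two-sided, gave p = 0.1 for each, the smallest that 3 against 3 allows; a share of 1 chain is tied to the others of its class. Unlike the shares, summed FPKM depends on the scaling, and it rests on library totals without TMM scaling. The TMM factors were 1.02 to 1.07 in controls and 0.946 to 0.975 with ApoD overexpression. On that basis the listed laminin alpha chains went from 122 ± 4.94 to 89.2 ± 5.78. The beta chain sums were 229 ± 23.5 and 214 ± 12.9, and the groups overlapped (203 to 249 and 203 to 228).

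The gamma chains did not pass. LAMC1, shared by most laminins, stood at 613, 650 and 565 CPM in controls and at 619, 569 and 669 CPM with ApoD overexpression, with a log2 difference of 0.02 ± 0.09 (SE; edgeR adjusted p = 0.861) whose sign flipped under scaling by library totals and after removal of the abundance trend. LAMC3 had 3.30 to 4.57 CPM in controls and 4.29 to 5.88 CPM with ApoD overexpression (adjusted p = 0.153). LAMA2 and LAMA4, alpha chains known from muscle and vessels, stayed under 2 CPM in each library, with adjusted p = 0.457 and 0.154. With the abundance trend removed LAMA4 was at 1.53 and LAMC3 at 0.71, both past the threshold (adjusted p = 0.0215 and 0.0171).

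NID1, which joins the laminin gamma chain to collagen IV, fell, and its relative NID2 did not pass. NID1 stood at 2.68, 8.08 and 5.80 CPM in controls and at 2.16, 0.760 and 1.07 CPM with ApoD overexpression. Control replicate 1 lay close to the highest library of the other group, and the remaining controls stood well above. NID1 fell by 2.04 ± 0.43 on the log2 scale (SE, n = 3; edgeR adjusted p = 0.00197), with a change of -2.37 when control replicate 1 was left out. NID2 had 22, 15 and 12 counts in controls and 26, 7 and 38 with ApoD overexpression (adjusted p = 0.404). Markers of vessels and fibroblasts, which also make nidogens, were lower in sum with ApoD overexpression, as NID1 and ITGB3 were. Of 6 endothelial markers 4 matched a row, with a sum of 8.11 to 13.4 CPM in controls and 1.35 to 2.30 CPM with ApoD overexpression. CDH5 had 86, 51 and 20 counts and then 1, 0 and 0, and it passed the filter only through the controls. Among controls CDH5 was highest in replicate 1, where NID1 and ITGB3 were lowest. PECAM1, at 142, 312 and 402 counts in controls, was lowest there as well. Of 8 fibroblast markers 6 matched, with a sum of 26.9 to 32.6 CPM and then 9.85 to 13.8 CPM, mostly COL1A1. COL3A1 had 161, 128 and 67 counts and then 6, 4 and 4, and it passed the filter only through the controls. DCN and LUM had 1 count in each group. The 3 tested endothelial markers and the 2 tested fibroblast markers were all called lower (100% each, against 48.8% of all tested genes called in either direction). Their part in the falls of NID1 and ITGB3 was not tested.

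The genes that work with these receptors and matrix chains were taken from 4 lists, given here by counts beside the 48.8% of all tested genes called. Of 28 adhesome genes, which link integrins to actin and carry their signals, 9 rose and 5 fell (50%), with a median log2 fold change of 0.14. FERMT1, FERMT2 and FERMT3 encode kindlins, which switch integrins on; FERMT2 differed by 0.27 ± 0.11 and did not pass (edgeR adjusted p = 0.0657). FERMT1 stood at 58.5, 51.9 and 41.3 CPM in controls and at 90.4, 96.6 and 99.0 CPM with ApoD overexpression, a rise of 0.91 ± 0.12 (SE, n = 3; edgeR adjusted p = 9.06e-05). FERMT3, known from blood cells, rose by 1.82 ± 0.51 from 5, 16 and 16 counts to 49, 30 and 43. The adaptor PDLIM7 rose by 0.87 ± 0.09, and the tensin TNS2 fell by 1.05 ± 0.21. The talins TLN1 and TLN2, which bind beta chain tails, did not pass (adjusted p = 0.39 and 0.45).

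Of 4 hemidesmosome partners of ITGB4, 2 rose and 1 fell (75%). PLEC, the plectin that ties ITGB4 to keratin, stood at 530, 404 and 351 CPM in controls and at 740, 884 and 897 CPM with ApoD overexpression, a rise of 0.97 ± 0.14 (SE, n = 3; edgeR adjusted p = 0.000157). COL17A1, a transmembrane collagen of the same structure, rose by 0.60 ± 0.10 (adjusted p = 0.00036), and by 0.39 with the abundance trend removed. DST, whose epithelial product is another keratin linker, fell by 1.02 ± 0.17 (adjusted p = 0.000478), and CD151 did not pass (adjusted p = 0.0964). DST was lowest in ApoD overexpression replicate 2, at 69.4 CPM, against 111 and 126 CPM in the other libraries of that group and 188 to 222 CPM in controls. A count per gene does not separate the products of DST, so its epithelial product was not measured by itself.

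**Figure D4:**
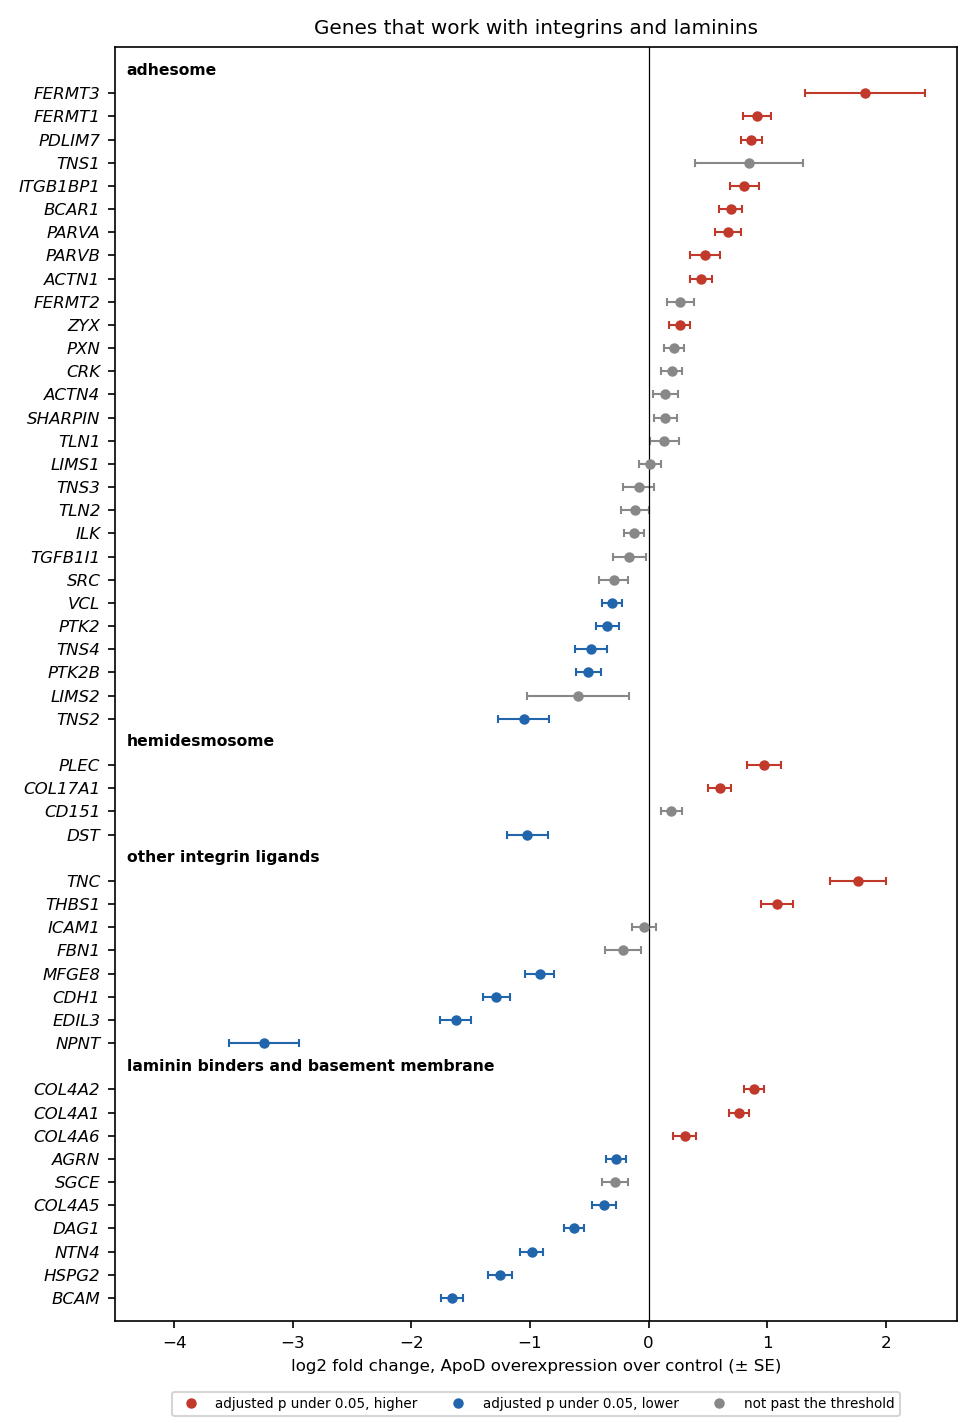
Log2 fold change (x axis, ApoD overexpression over control, ± SE) of the tested partner genes in 4 lists, in red where higher and blue where lower at an edgeR adjusted p under 0.05. In the list of laminin binders and basement membrane genes BCAM lies farthest to the left and COL4A2 farthest to the right.

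Of 10 laminin binders and basement membrane genes 3 rose and 6 fell (90%), with a median of -0.33. BCAM, a receptor for the LAMA5 chain, stood at 217, 237 and 246 CPM in controls and at 77.1, 74.6 and 69.8 CPM with ApoD overexpression, and it fell by 1.66 ± 0.09 (SE, n = 3; edgeR adjusted p = 2.51e-07). HSPG2, the basement membrane proteoglycan perlecan, fell by 1.25 ± 0.10, and NTN4, a netrin that binds laminin gamma chains, fell by 0.99 ± 0.10. DAG1, the laminin receptor dystroglycan, also fell, from 812 ± 49.6 to 526 ± 15.1 CPM. The collagen IV chain COL4A2 rose by 0.88 ± 0.08, from 217 ± 9.41 to 400.2 ± 15.2 CPM. Of the other listed collagen IV chains, COL4A1 rose by 0.76 ± 0.08 and COL4A6 by 0.31 ± 0.10, and COL4A5 fell by 0.37 ± 0.10. Among 14 other integrin ligands 8 were tested, of which 2 rose and 4 fell (75%; median -0.57). NPNT, the ligand of the integrin ITGA8 with ITGB1, fell by 3.24 ± 0.29 from 168, 285 and 216 counts to 20, 18 and 27. EDIL3, an RGD ligand of ITGAV integrins, stood at 159, 209 and 205 CPM in controls and at 69.9, 52.8 and 62.4 CPM with ApoD overexpression, and it fell by 1.63 ± 0.13. TNC, a ligand of several ITGAV and ITGA9 integrins, rose by 1.76 ± 0.24, and CDH1, the E-cadherin that ITGAE with ITGB7 binds, fell by 1.29 ± 0.11. DAG1, COL4A1, COL4A5 and COL4A6 were named after their values were seen.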

How the data were processed

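Read counts per gene symbol, as whole numbers, and FPKM values are the 2 tables that the authors deposited, per the file headers. Each FPKM above 0 equalled the count over the column total and a single gene length, within a relative 2.37e-10. The sources used here do not give the aligner, counting program, strand setting or genome build. All columns matched a sample by its title. Counts were fitted over the whole table with edgeR 4.0.16 (R 4.3.3): TMM scaling, filterByExpr with a minimum count of 10, the two-sided quasi-likelihood F test, Benjamini-Hochberg over 14629 genes and a threshold of 0.05. Each SE is the absolute log2 fold change over the square root of F. The fit was checked on simulated data in which far fewer genes changed than were called here, so that check does not cover a change this wide. Alternatives used DESeq2 1.42.0, limma 3.58.1 on log2(FPKM + 1) or log2(FPKM + 0.1), glmTreat, library totals, removal of each library's smoothed (lowess) deviation by gene abundance, no filter, a replicate block and omission of each library. The gene set and the lists of partners and markers were chosen with earlier results of these data known. Every listed gene is accounted for, with library values for those past the threshold and their partners. Of each partner list, up to 4 genes past the threshold with the largest change are named. TLN1, TLN2, FERMT2, CD151, DAG1, COL4A1, COL4A5 and COL4A6 were added after they were seen. So were the values of PECAM1 and of single epithelial markers, and the library values of ITGA2, ITGA5, ITGA7, ITGB2, ITGB3, NID1 and NID2. UTR limits of the printed sequences follow GENCODE 29.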

Additional observations from a re-analysis of the deposited data

How the results depend on the processing

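Of the 12 calls, those of FN1, ITGB5, ITGB6 and NID1 held under every alternative in which the gene was tested (16, or 14 for NID1); their log2 changes smallest in size were 0.84, 0.64, -1.29 and -0.68. A test against a 1.5-fold change called 5 of the genes (2 higher, 3 lower) and 1975 genes in all (545 and 1430), and LAMA5 and LAMB2 lost their calls in that test alone. It called 3 adhesome genes (2 and 1), 2 hemidesmosome genes (1 and 1), 4 basement membrane genes (1 and 3) and 6 other integrin ligands (2 and 4). Unfiltered log2(FPKM + 1) called 2 genes of the set and 2317 of all genes as higher, and it ended the calls of ITGAE, ITGB8, ITGB3, ITGA7 and LAMB3. With 1 library left out, 3 to 7 genes of the set rose, 6 to 9 fell and 10 to 13 passed.

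The same-numbered libraries did not deviate together (correlations of -0.115, -0.0057 and -0.039), so the numbers were not taken as pairs; with the replicate block 10 genes passed, 4 higher and 6 lower, and 6348 of all genes. The sign changed in some alternatives for ITGA2, ITGA3, LAMC1, LAMA3, LAMA2 and ITGB1, none of them past the threshold in the fit reported; LAMA3 was at 0.19 there and LAMA2 at -0.33. With the abundance trend removed the first 5 were at -0.16, -0.17, -0.18, -0.0053 and 0.20. With library totals ITGA2, ITGA3 and LAMC1 were at -0.072, -0.084 and -0.093, with log2(FPKM + 1), filtered or not, at -0.073, -0.079 and -0.094, and with log2(FPKM + 0.1) at -0.075, -0.080 and -0.095. With 1 library left out the changes ran from -0.12 to 0.22 for ITGA2, -0.027 to 0.081 for ITGA3, -0.019 to 0.074 for LAMC1 and -0.059 to 0.041 for ITGB1. The difference in the ITGA2 share of its class, -0.40 percentage points, ran from -1.02 to 0.472, the last without ApoD overexpression replicate 2. The cause of these changes was not tested. ITGA7, ITGB3 and NID2 rest on at most 57, 105 and 38 counts in a library.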
